A study of Drosophila melanogaster with 34 samples.

Results

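Newly hatched larvae of Drosophila melanogaster from populations kept under a variable regime were compared with larvae from control populations after both had been soaked in ethanol as embryos. The comparison rests on 11 of the 34 arrays analysed here, 5 from the variable populations M1 and M2 and 6 from the control populations R1 and R2. Arrays were chosen by label alone, as every ethanol-exposed sample of these 4 populations. A gene counted as different when limma gave an adjusted p under 0.05 with extraction day as a factor and when M1 and M2 both lay on the same side of R1 and R2.

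All 6 populations of the experiment descend from 1 outbred base population and had been selected for more than 300 generations. Control populations were kept on standard medium in every vial. Variable populations had standard medium in some vials of each generation and medium with 12% ethanol in the others, and flies from all vials were mixed to found the next generation. Before the experiment flies of every population were reared on standard medium under 1 common condition. In the ethanol exposure, eggs lay for 15 hours under an 18% solution, which came to about 12% with the laying medium. In the water exposure, used here as a second comparison, eggs of the same populations lay under distilled water. First-instar larvae were then collected, and RNA was taken from pools of 50 to 200 whole larvae with 1 pool per population and exposure on each of 3 days, which the titles number 1, 2 and 5. M1, R1 and R2 each had 3 ethanol-exposed arrays and M2 had 2, on days 2 and 5. Among water-exposed arrays M1 had none of day 2, so without day 5 it is read there from day 1 alone. Regime was replicated by 2 populations only, and sex, tissue and single animals are not resolved in a pool of whole larvae.

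Fruit fly larvae live in fermenting fruit and both feed on ethanol and detoxify it. Alcohol dehydrogenase oxidises ethanol to acetaldehyde, which is oxidised further to acetate, and acetate enters lipid synthesis and energy metabolism after acetyl-CoA synthetase has activated it. Cytochrome P450 enzymes, glutathione S-transferases and UDP-glycosyltransferases are large families that modify and conjugate foreign compounds, and their members differ widely in substrate and tissue.

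The 11 arrays were of like quality. Their medians over all probe sets lay between 3.89 and 4.02 on the log2 scale, the correlation between any pair over probe sets was 0.987 to 0.997, and no pair held identical values. Probe sets reaching a value of 4 on 5 or more of the 11 arrays were tested, which left 9394 probe sets, 8310 of them naming 1 of 7809 genes. The labels do not say whether the pools of a population were grown as separate cultures, and p-values over arrays reflect only the spread between these RNA pools within 4 populations.

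The day 5 arrays labelled M1 and M2 went against their labels. Probe sets that separated a pair of populations on days 1 and 2 over both exposures, at a limma adjusted p under 0.05, were read again on day 5. For R1 and R2 there were 525 such probe sets, and 497 of them (94.7%) had the same sign between the ethanol-exposed arrays of day 5, with a correlation of 0.88 across probe sets. For M1 and E1, a population kept on ethanol medium throughout, there were 400, and the same sign was found for 26 (6.5%) in ethanol-exposed and 27 (6.75%) in water-exposed larvae, with correlations of -0.84 and -0.86. For M2 and the other ethanol population E2, 0 of 18 kept their sign in ethanol-exposed and 2 of 18 in water-exposed larvae. Each other pair kept its sign for at least 58.6% of its probe sets in both exposures. The ethanol-exposed day 5 array labelled M1 resembled the earlier E1 arrays (r 0.68) more than the earlier M1 arrays (r 0.12), and the one labelled M2 resembled E2 (r 0.62) more than M2 (r 0.27). The arrays labelled E1 and E2 were in turn nearest to M1 (r 0.51) and M2 (r 0.50), whereas R1 and R2 were nearest to their own earlier arrays. Water-exposed arrays of day 5 followed the same order, except that the one labelled E2 was nearest to E2 (r 0.38).

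**Figure D1:**
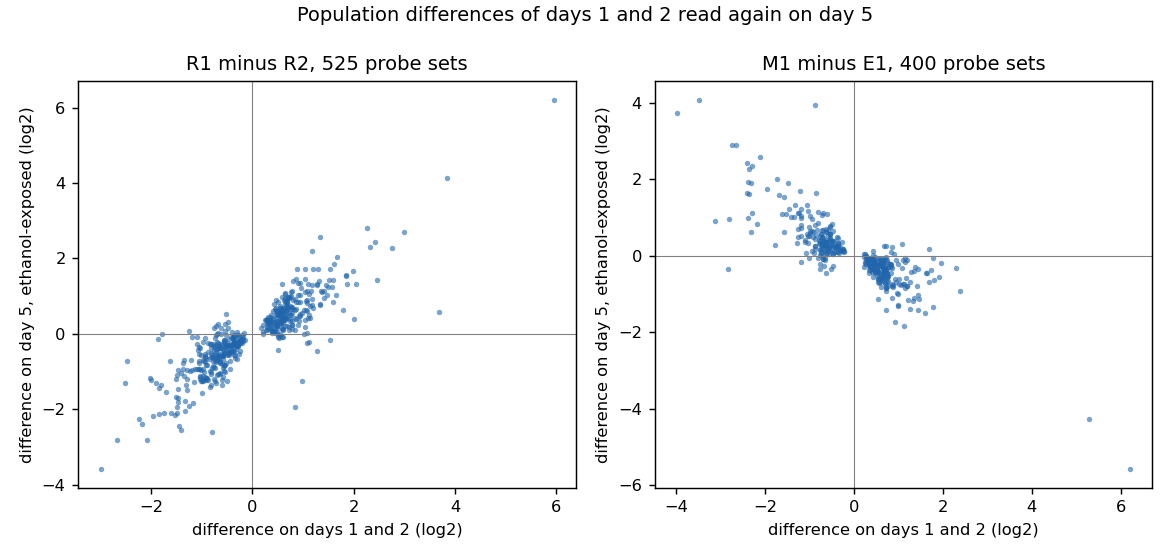
Each point is a probe set that separated 2 populations on days 1 and 2, plotted by its difference on those days (horizontal, log2) and on day 5 in ethanol-exposed larvae (vertical, log2). The 525 probe sets of R1 minus R2 lie mostly along the rising diagonal, with 94.7% of equal sign, and the 400 of M1 minus E1 along the falling one, with 6.5% of equal sign.

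A single gene shows the pattern. CG15772, chosen after its values were seen, read 8.93 and 8.35 in M1 on days 1 and 2 and 8.10 in M2 on day 2, and then 2.71 and 3.36 in the day 5 arrays labelled M1 and M2. In E1 it read 2.52 and 1.88 on the earlier days and 8.30 in the array labelled E1 on day 5. Its difference between M and R was 2.24 ± 1.12 (log2 ± SE, limma adjusted p 0.305) with all 11 arrays and 4.92 ± 0.30 (limma adjusted p 0.00243) without the M1 and M2 arrays of day 5. No array was relabelled here. Results are therefore given with all 11 arrays and again without the day 5 arrays labelled M1 and M2, which leaves 3 variable arrays against 6 control arrays. In that setting M2 is read from its day 2 array alone, also for the rule on sides. With day as a factor, the day 5 control arrays then inform the spread but not the difference between M and R.

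With all 11 arrays, 250 of 9394 probe sets (2.66%) differed between variable and control populations in ethanol-exposed larvae. Of these 136 (1.45% of those tested) were higher and 114 (1.21%) lower in the variable populations, and after centring each array on its median the split was 102 higher and 139 lower. Changes were mostly small, with a median size of 0.55 on the log2 scale, and 27 exceeded 1. The arrays of M and R did not overlap at all for 73 of the 250, against 140 (1.49%) of all probe sets tested. Before any test, 37.9% of all probe sets had M1 and M2 on the same side of both controls. Among the 250 the median gap was 0.19 between M1 and M2 and 0.19 between R1 and R2. The rule for a call uses these same population values and favours small gaps, so their size is not counted as support. Counted by gene, 212 of 7809 (2.71%) differed, 119 higher (1.52%) and 93 lower (1.19%). Of the 250 probe sets, 29 carry no gene name here. Of 9 genes with several probe sets tested whose brightest probe set was called, all probe sets went in 1 direction for 6. Genes called only through a dimmer probe set, such as CG34005, are not among the 9.

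Without the M1 and M2 arrays of day 5, 29 probe sets (0.309%) differed, 5 higher (0.0532%) and 24 lower (0.255%), and 24 of the 29 were among the 250. The 5 that were higher, named after their values were seen, were CG15772, CG11425 (1.02), CG9701 (0.97), CG6733 (0.68) and QC (0.65), a glutaminyl cyclase gene. Counted by gene, 23 (0.295%) differed without these arrays, 5 higher (0.064%) and 18 lower (0.231%). All 250 kept their sign, and the median ratio of their size without these arrays to their size with them was 0.946. The 250 were chosen on arrays that include all those of the smaller fit. Equal signs are thus largely built in and are not counted as support. Why fewer probe sets passed in that setting was not tested. When the 4 populations, and not the arrays, were taken as replicates, limma found 0 probe sets at an adjusted p under 0.05 (smallest 0.170), with 639 (6.8%) at an unadjusted p under 0.05, and without the day 5 arrays of M1 and M2 again 0, with 587 (6.25%).

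**Figure D2:**
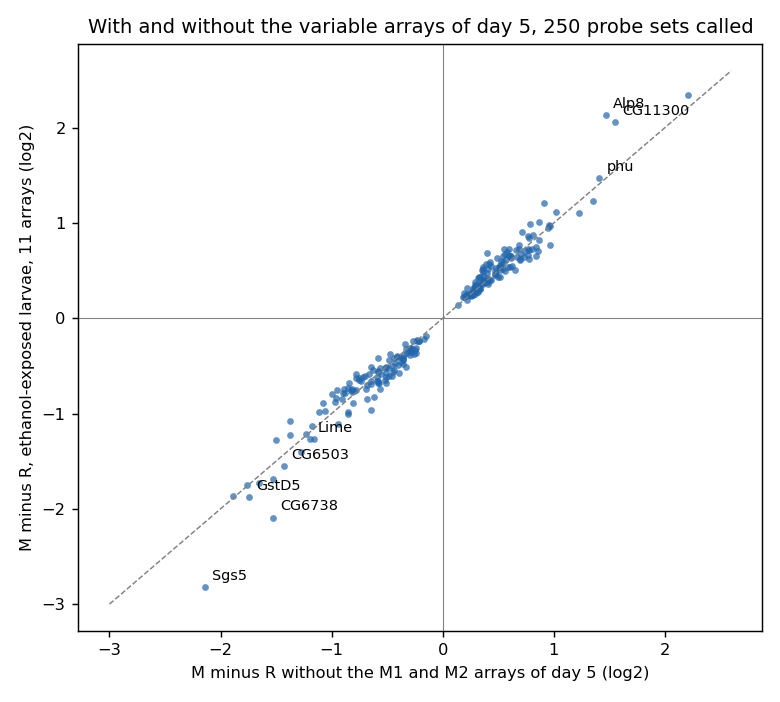
Each point is 1 of the 250 probe sets called with all 11 arrays, plotted by its difference without the M1 and M2 arrays of day 5 (horizontal, log2) and with all 11 arrays (vertical, log2), beside a dashed line of equality. All 250 have the same sign on both axes, which share arrays, and Sgs5 and Alp8 lie farther from zero with all 11 arrays.

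The genes that fell furthest in the variable populations encode a glue protein, detoxification enzymes, a serpin, a transcription factor and several proteins known only by a gene number. Sgs5, a salivary glue protein gene, showed the largest decrease. It read 4.49, 4.85 and 5.58 in M1 on days 1, 2 and 5 and 6.33 and 4.14 in M2 on days 2 and 5. In the controls it ran from 7.23 through a median of 7.95 to 8.72. Each of the 5 variable arrays lay below each of the 6 control arrays. The difference was -2.82 ± 0.44 (limma adjusted p 0.0152), a 7.08-fold decrease, and without the day 5 arrays of M1 and M2 it was -2.14 ± 0.31 (limma adjusted p 0.0434). In water-exposed larvae Sgs5 was below the detection level of 4 on nearly every array, between 2.67 and 3.78 in M and 3.03 and 4.16 in R. With populations as replicates Sgs5 had the smallest unadjusted p among named genes, 7.08e-05, which did not pass adjustment (0.332). The only other salivary gland marker tested, the transcription factor gene fkh, read 0.21 higher in M with an adjusted p of 0.311 by limma. The mean log2 level of both markers was 5.06 to 6.29 per array in M and 6.56 to 7.40 in R. That gap comes from Sgs5 itself, as fkh went the other way, so it adds nothing on the gland. In whole larvae, fewer cells of a type and less RNA per cell cannot be told apart.

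GstD5 encodes a glutathione S-transferase. It read 2.02, 1.98 and 2.57 in M1, below detection on all 3 days, and 3.44 and 4.97 in M2. The controls ran from 3.78 through 4.97 to 6.93. The groups overlapped only through the day 5 array labelled M2. The difference was -1.87 ± 0.18 (limma adjusted p 0.00156), and -1.75 (limma adjusted p 0.021) without the day 5 arrays of M1 and M2. Because the mean of M, 3.13, lay below the detection level, the size depends on the background model of the array summary.

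CG6503 and Spn47C differed at a limma adjusted p of 0.00119 each. CG6503 read 6.67, 6.35 and 6.60 in M1 and 7.48 and 6.78 in M2, and its controls ran from 8.08 through 8.47 to 8.57. Spn47C, a serpin gene of the family of serine protease inhibitors, read 7.02, 6.64 and 7.42 in M1 and 5.99 and 5.87 in M2, and its controls ran from 7.50 through 7.93 to 8.20. Neither gene had a variable array within the range of the controls. The differences were -1.55 ± 0.14 for CG6503 and -1.40 ± 0.13 for Spn47C, and -1.43 and -1.28 without the day 5 arrays of M1 and M2, with limma adjusted p of 0.0139 and 0.0178.

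Lime, which encodes a zinc finger transcription factor that acts in blood cell metabolism and immunity, was among the evenest of the decreases. It read 6.97, 6.88 and 6.47 in M1 and 6.54 and 6.79 in M2, against 7.66 through 7.99 to 8.58 in the controls. The groups did not overlap and the 5 variable arrays spanned less than the controls did. The difference was -1.27 ± 0.14 (limma adjusted p 0.00288), -1.19 without the day 5 arrays of M1 and M2 (0.0434), and -1.43 ± 0.10 in water-exposed larvae (limma adjusted p 5.52e-05). With populations as replicates it had an unadjusted p of 0.000239 and an adjusted p of 0.45.

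Cyp9b1, a cytochrome P450 gene, read 3.92, 4.31 and 3.84 in M1 and 5.12 and 5.37 in M2, against 5.42 through 5.81 to 6.44 in the controls. All variable arrays were lower than all controls, and M1 was lower than M2 on both days they shared. The difference was -1.26 ± 0.14 (limma adjusted p 0.00298) and -1.16 without the day 5 arrays of M1 and M2 (0.0319). CG16995 read 4.57, 3.70 and 3.13 in M1 and 2.31 and 2.65 in M2, against 4.61 through 5.00 to 5.33, so that it too did not overlap. It fell by 1.75 ± 0.19 on the log2 scale (limma adjusted p 0.00288), and by 1.76 without the day 5 arrays of M1 and M2 (0.0196), with 4 of the 5 variable arrays below detection.

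CG6738 read 8.76, 8.71 and 9.11 in M1 and 8.75 and 5.43 in M2, against 9.49 through 10.06 to 10.79 in the controls. The day 5 array labelled M2 lay far below the other 4 variable arrays, and the E2 arrays of days 1 and 2 read 6.83 and 6.69. With it the difference was -2.09 ± 0.43 (limma adjusted p 0.0312) and without the day 5 arrays of M1 and M2 it was -1.53 ± 0.14 (limma adjusted p 0.0091). CG13325 fell by 1.87 ± 0.21 (limma adjusted p 0.00288) and CG9928 by 1.23 ± 0.17 (0.00957), each with an overlap between the groups. All 10 of these largest decreases remained called without the day 5 arrays of M1 and M2, at limma adjusted p of 0.00910 to 0.0496. Among the 250 probe sets called, 24 remained called. For 7 of the 10 the arrays did not overlap, against 73 of the 250 and 1.49% of all probe sets tested. The 10 were the largest calls on arrays that include all those of the smaller fit. Both counts are thus partly built in and are not counted as support.

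Each gene is represented by its brightest probe set, and by that measure the genes that rose furthest encode alkaline phosphatases, a peptidoglycan recognition protein, a UDP-glycosyltransferase, an organic cation transporter and a replication licensing factor, beside CG11300, CG11425, mthl8 and Tmlh. A second, dimmer probe set of CG34005, named after its values were seen, rose by more than any of these, 2.34 ± 0.26 (limma adjusted p 0.00288), from a control mean of 3.70, below detection, to 6.04. It stood at 2.21 (limma adjusted p 0.0598) without the day 5 arrays of M1 and M2 and at 2.40 in water, while the brighter probe set of CG34005 read -0.01 (limma adjusted p 0.956), so that the 2 probe sets of this gene disagreed. Of the 10 largest increases by brightest probe set, 4 had arrays that did not overlap, against 1.49% of all probe sets tested. As with the decreases, the 10 were chosen on these same arrays, so such counts are not support. Without the day 5 arrays of M1 and M2 all 10 kept their direction, at 0.79 to 1.56 on the log2 scale, and 1, CG11425, remained called. Their limma adjusted p ran from 0.0298 to 0.271 in that setting.

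Alp8 encodes an alkaline phosphatase, an enzyme that removes phosphate groups at alkaline pH. It read 8.34, 7.98 and 8.23 in M1 and 7.36 and 8.04 in M2. The controls read 6.60, 4.96 and 5.08 in R1 and 7.98, 6.71 and 4.87 in R2 on days 1, 2 and 5. The day 1 array of R2 lay within the range of M, and the other 5 controls lay below every variable array. The difference was 2.13 ± 0.36 (limma adjusted p 0.022), a 4.38-fold increase, and 1.47 ± 0.38 (limma adjusted p 0.213) without the day 5 arrays of M1 and M2. In water-exposed larvae the difference was -0.09 ± 0.28, and there the controls read between 8.63 and 9.87.

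The gene phu encodes another alkaline phosphatase. It read 8.25, 8.41 and 9.34 in M1 and 7.88 and 8.89 in M2, against 6.28 through 6.69 to 8.60 in the controls, where the day 5 array of R1 was the highest and lay within the range of M. The difference was 1.47 ± 0.28 (limma adjusted p 0.0248), 1.41 (0.257) without the day 5 arrays of M1 and M2, and 0.05 in water. Of 10 alkaline phosphatase genes tested, 3 rose, Alp8, phu and Alp4 (0.65 ± 0.13, limma adjusted p 0.0268), and none fell, with a list median of 0.21 against 0.01 over all genes tested. That was 30% of the list, against 2.71% of all genes. This list and those below were chosen with earlier results of these data known, so their shares are descriptions and not tests. Alp7 read 2.06 ± 0.46 higher in M with a limma adjusted p of 0.0457, but M1 lay below R2 after adjustment for day and it was not called. Midgut markers had no called member among 7 tested and a median of -0.19, at a mean log2 level of 9.54 to 10.69 in M and 9.12 to 10.72 in R. Without the day 5 arrays of M1 and M2 the alkaline phosphatase median was 0.05 and no member passed the test.

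CG11300 read 9.41, 9.01 and 8.76 in M1 and 9.67 and 11.05 in M2, against 6.25 through 7.82 to 9.48 in the controls. R2 on day 1 reached into the range of M. The difference was 2.06 ± 0.27 (limma adjusted p 0.00678), and it came to 1.56 ± 0.24 with an adjusted p of 0.0504 without the day 5 arrays of M1 and M2. The day 5 array labelled M2 was the highest of the variable arrays, and the E2 arrays of days 1 and 2 read 11.38 and 11.49.

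PGRP-SC2, an amidase that degrades bacterial peptidoglycan and dampens the immune response in the gut, read 9.71, 9.83 and 11.02 in M1 and 9.93 and 10.75 in M2. The controls ran from 6.92 through 9.07 to 10.47, and R1 on day 5 overlapped with M. The difference was 1.23 ± 0.20 (limma adjusted p 0.0179) and 1.35 (0.138) without the day 5 arrays of M1 and M2. It was the only called member of 10 immune peptide and recognition genes tested (10%, against 2.71% of all genes), whose list median was -0.31.

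Orct2, an organic cation transporter gene, rose with no overlap, from 6.36 to 7.19 in the controls to 7.76, 8.03 and 8.29 in M1 and 7.90 and 7.69 in M2. Its difference was 1.01 ± 0.15 (limma adjusted p 0.0129). Ugt49C1, a UDP-glycosyltransferase gene, read 7.82, 7.88 and 8.08 in M1 and 7.53 and 9.13 in M2, against 6.14 through 7.13 to 7.42, and also did not overlap. It rose by 1.21 ± 0.24 (limma adjusted p 0.0303) and by 1.28 ± 0.14 in water (limma adjusted p 0.000753). CG11425 read 9.33, 8.95 and 10.68 in M1 and no lower than 8.49 in M2, against 7.51 through 8.13 to 8.41 in the controls, without overlap. Its difference was 1.11 ± 0.18 (limma adjusted p 0.0156) and 1.02 ± 0.13 (0.0298) without the day 5 arrays of M1 and M2. The other increases among the 10 were mthl8, of the methuselah-like family of G protein-coupled receptors, at 1.11 ± 0.19, and Tmlh, an enzyme gene of carnitine synthesis, at 0.99 ± 0.17, each with a limma adjusted p of 0.022 and with overlapping arrays.

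**Figure D3:**
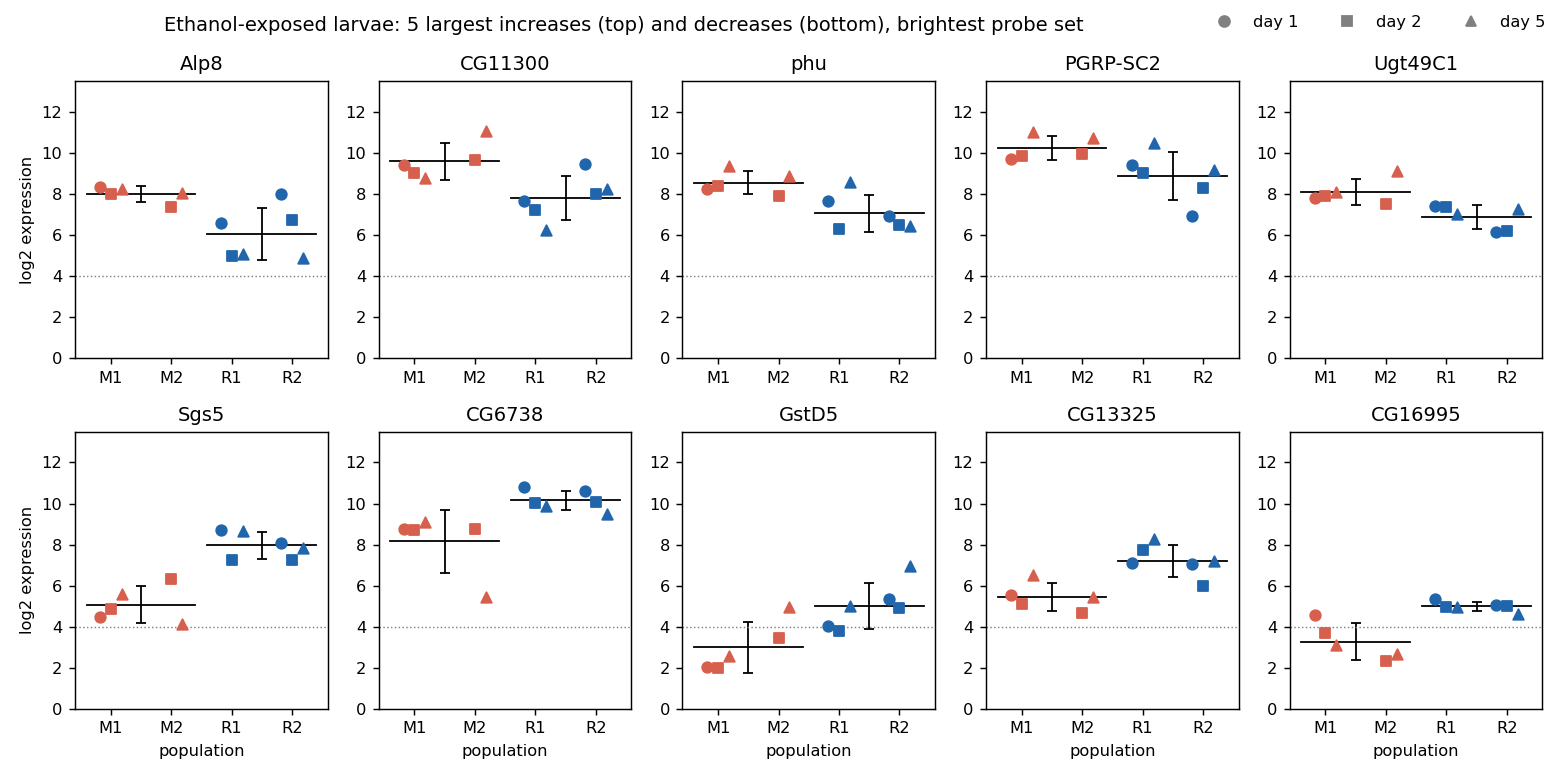
Log2 expression in ethanol-exposed larvae of the 5 genes that rose furthest (top) and the 5 that fell furthest (bottom) by their brightest probe set, with 1 point per array, days by symbol, variable populations in red and control populations in blue. Long lines are means over the arrays of a regime, bars their SD, and the dotted line the detection level of 4, below which most M arrays of GstD5 and CG16995 lie.

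Some genes of DNA replication rose in the variable populations. Of 11 cell cycle and DNA replication genes tested, 4 rose, none fell and all 11 had a positive difference, with a list median of 0.57 against 0.01 over all genes. The background for a gene called higher is 1.52%, and 52.2% of all genes had a positive difference. The 4 were the sliding clamp gene PCNA, the ribonucleotide reductase subunit gene RnrL, and Mcm2 and Mcm5 of the replicative helicase. Mcm2 read 6.28, 6.04 and 6.51 in M1 and 5.71 and 6.61 in M2, against 5.26 through 5.43 to 5.83 in the controls, and differed by 0.73 ± 0.12 (limma adjusted p 0.0183). Its groups overlapped by the day 2 array of M2 only. PCNA read 8.93, 9.22 and 9.30 in M1 and 8.76 and 9.40 in M2, against 8.19 through 8.50 to 8.74, without overlap and with a difference of 0.57 ± 0.12 (limma adjusted p 0.0314).

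RnrL differed by 0.67 ± 0.15 (limma adjusted p 0.0457) and Mcm5 by 0.58 ± 0.13 (0.0489). Mcm6 read 0.59 higher but was not called (limma adjusted p 0.054). Cdc6, which loads the helicase onto replication origins, stood outside the list among the 10 largest increases. It read 5.66, 6.36 and 5.50 in M1 and 5.50 and 6.01 in M2, against 4.56 through 4.80 to 4.97 in the controls, with no overlap. Its difference was 0.97 ± 0.18 (limma adjusted p 0.0227). Without the day 5 arrays of M1 and M2 10 of the 11 list members stayed positive, with a median of 0.43, but none passed the test, and Cdc6 stood at 0.95 with a limma adjusted p of 0.107. In water-exposed larvae 10 of the 11 were positive with a median of 0.22.

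Nuclear genes for mitochondrial ribosomal proteins, which translate the proteins encoded by mitochondrial DNA, leaned the same way by smaller amounts. Of 69 tested, 4 rose, mRpS6 (0.34 ± 0.07), mRpL19 (0.31 ± 0.06), mRpL14 (0.28 ± 0.06) and mRpS25 (0.28 ± 0.05), and none fell, at limma adjusted p of 0.0227 to 0.0281. The called share was 5.8% of the list, against 2.71% of all genes. A positive difference was found for 66 of the 69 (95.7%), against 52.2% of all genes, with a median of 0.16. Without the day 5 arrays of M1 and M2 64 were positive, the median was 0.16 and none passed the test, and in water 42 were positive with a median of 0.02. Cytosolic ribosomal proteins (32 tested, median 0.02) and oxidative phosphorylation genes (56 tested, median 0.02) had no called member. They also leaned up, with 24 (75%) and 43 (76.8%) positive, so the lean was not particular to mitochondrial ribosomal proteins. In water 16 and 26 of them were positive.

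Cytochrome P450 genes split, with more called lower than higher. Of 60 tested, 3 rose and 7 fell, 16.7% of the list against 2.71% of all genes, and the list median was -0.13. As this list was chosen with earlier results of these data known, the share is a description and not a test. Beside Cyp9b1, the genes that fell were Cyp309a1 (-0.89 ± 0.14), Cyp4d1 (-0.73 ± 0.12), Cyp6a23 (-0.58 ± 0.11), Cyp6d5 (-0.48 ± 0.09), Cyp28a5 (-0.33 ± 0.06) and Cyp6g1 (-0.27 ± 0.04), the last known for its role in insecticide resistance, at limma adjusted p of 0.0162 to 0.0275. Those that rose were Cyp6a16 (0.73 ± 0.15), Cyp4p3 (0.54 ± 0.08) and Cyp9f2 (0.26 ± 0.06). Cyp4p3 read 9.23, 9.07 and 8.86 in M1 and 8.96 and 8.83 in M2, against 8.16 through 8.50 to 8.63 in the controls. It did not overlap, and in water it was higher by 0.52 ± 0.09 (limma adjusted p 0.0106). Cyp4d1 read 8.39, 8.49 and 10.09 in M1 and 8.20 and 9.55 in M2, against 8.84 through 9.23 to 10.54. Its day 5 arrays were the highest in every population, so that the groups overlapped, but within each day the variable arrays lay below both controls. Without the day 5 arrays of M1 and M2, Cyp9b1 was the only P450 gene called, and Cyp12d1-d stood at 2.10 with a limma adjusted p of 0.00780 but M1 and M2 did not both lie on the same side of R1 and R2.

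Among 31 glutathione S-transferases, which conjugate glutathione to reactive compounds, 1 rose and 4 fell, with a median of -0.06. That was 16.1% of the list, against 2.71% of all genes. GstD4 (-1.08 ± 0.24), GstD9 (-0.63 ± 0.11) and GstE6 (-0.63 ± 0.11) fell beside GstD5, at limma adjusted p of 0.0223 to 0.0457, and GstE1 rose by 0.36 ± 0.08 (0.0357). The GstD genes are similar in sequence, and whether their probe sets also read RNA of their relatives was not tested. Of 26 UDP-glycosyltransferases, Ugt49C1 rose while Ugt37C2 (-0.79 ± 0.17) and Ugt35C1 (-0.39 ± 0.08) fell, 11.5% of the list against 2.71% of all genes. Over all lists, GstD5, Cyp9b1 and Sgs5 were the members still called without the day 5 arrays of M1 and M2. Keap1, a sensor that restrains the antioxidant transcription factor Nrf2, was the only called gene of 13 in the oxidative stress list (7.69%, against 2.71% of all genes). It read 8.88, 8.93 and 8.86 in M1 and 8.88 and 8.74 in M2, against 9.10 through 9.26 to 9.70 in the controls, with no overlap, and fell by 0.50 ± 0.08 (limma adjusted p 0.0156).

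Among genes of ethanol metabolism the called differences were small. Of 11 tested, 2 rose and none fell, 18.2% of the list against 2.71% of all genes, with a median of -0.01. Gpdh1, a glycerol-3-phosphate dehydrogenase gene, read 13.06, 13.13 and 13.11 in M1 and 12.97 and 13.05 in M2, against 12.60 through 12.77 to 12.91 in the controls. Men, the malic enzyme gene, read 13.11, 13.12 and 13.11 in M1 and 13.25 and 13.29 in M2, against 12.88 through 13.03 to 13.10. Both were above every control array by small amounts, 0.26 ± 0.05 for Gpdh1 (limma adjusted p 0.0227) and 0.19 ± 0.03 for Men (0.0186). In water-exposed larvae they were also called and the differences were 0.49 ± 0.06 and 0.34 ± 0.05. Without the day 5 arrays of M1 and M2 they were 0.19 and 0.22 and were not called. AcCoAS, the acetyl-CoA synthetase gene, differed by 0.04 ± 0.04 (limma adjusted p 0.701).

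Alcohol dehydrogenase itself could be read only together with Adhr, the gene beside it, because both probe sets list Adh and Adhr. The bright one read 13.99, 13.95 and 13.91 in M1 and 13.95 and 13.92 in M2, and between 13.83 and 13.93 in the controls. It stood 0.08 ± 0.02 higher in M (limma adjusted p 0.0993), and the dimmer one 0.20 ± 0.14 (limma adjusted p 0.483). The bright probe set lay at the top of the measured range, and whether its signal was saturated was not tested. The aldehyde dehydrogenase gene Aldh was not among the genes tested.

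Further lists had 1 to 3 called members each or none, to be read against 2.71% of all genes. Of 21 membrane transporters Orct2 rose and sut2 (-1.13 ± 0.18) and the multidrug transporter gene Mdr49 (-0.59 ± 0.11) fell, 14.3% of the list. Of 57 cuticle proteins Cpr65Ec and Lcp65Aa rose by 0.62 and 0.35, and Cpr67B fell by 0.58, 5.26% of the list. The chaperone gene Hsp60A rose by 0.22 among 12 heat shock genes (8.33%) and the sterol carrier gene Npc2g fell by 0.52 among 8 (12.5%). No member was called among genes of glycolysis and gluconeogenesis (13 tested), the pentose phosphate pathway (4), fatty acid and lipid synthesis (20), lipolysis and fatty acid oxidation (13), glycogen and trehalose (7), nutrient sensing (17), digestive serine proteases (25), carbohydrases (15), lysozymes (2), odorant-binding proteins (23), chemosensory receptors (3), ecdysone and moulting (10), alcohol behaviour (13), transposon silencing (4) and purine metabolism (11). The carbohydrases had a median of -0.23, the lysozymes of -0.28 and the transposon silencing genes of 0.37. All 4 of the last were positive, against 52.2% of all genes. Their mean log2 level was 4.14 to 5.28 per array in M and 3.78 to 4.73 in R, near the detection level of 4. A gene this low can pass the filter through the 5 variable arrays alone, so this count is not support. SREBP, the transcription factor gene of the lipid list with its smallest p, read 0.24 ± 0.07 higher with an adjusted p of 0.0842.

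Markers of tissues were measured alongside. Of 11 haemocyte markers 1 rose (9.09%, against 2.71% of all genes), the peroxidasin gene Pxn at 0.54 ± 0.12 (limma adjusted p 0.0457). The list had a median of 0.02 and a mean log2 level of 8.72 to 9.14 in M and 8.45 to 9.06 in R. No marker was called among those of neurons (9 tested, median -0.08), muscle (8, -0.02), fat body (3, -0.02), trachea and epidermis (8, 0.01), midgut (7), male germ line (2, 0.09) and embryonic patterning (4, -0.22). None of the ovary and egg shell markers was detected often enough to be tested.

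**Figure D4:**
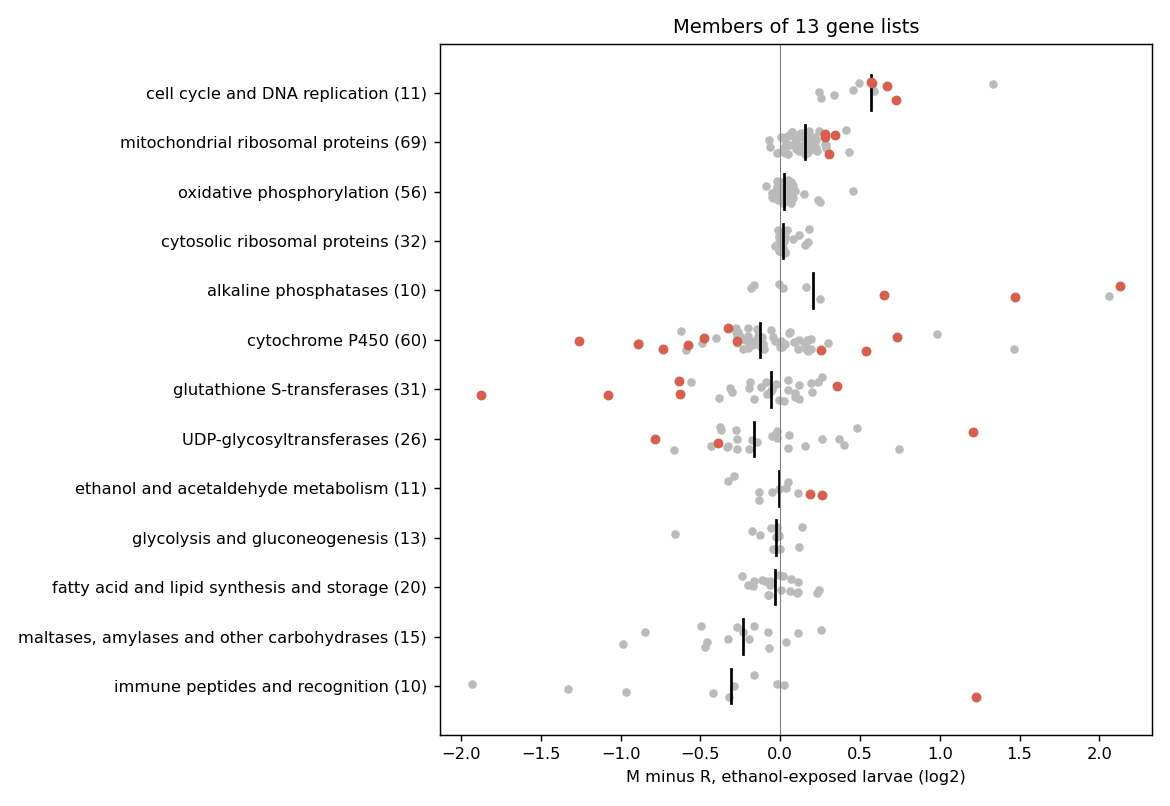
Difference between variable and control populations in ethanol-exposed larvae (log2) for each tested member of 13 gene lists, with the number tested in brackets, called members in red and the list median as a black bar. All 11 cell cycle and DNA replication genes and 66 of 69 mitochondrial ribosomal protein genes lie above 0, while called P450 genes lie on both sides.

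The water-exposed larvae of the same populations, on 11 other arrays, show how much of this was present without ethanol. There 108 probe sets (1.15%) differed between M and R, 45 higher (0.479%) and 63 lower (0.671%), or 85 genes (1.09%), and 50 (0.532%) without the M1 and M2 arrays of day 5. Of the 250 called in ethanol, 240 (96%) had the same sign in water, against 66.2% of all probe sets tested. Called in both exposures were 50, all with the same sign, which is 20% of the ethanol calls and 46.3% of the water calls. Taken in the direction of the ethanol difference, the median difference of the 250 in water was 0.31. By this measure 210 of them were larger in ethanol, the exposure in which they were selected. Probe sets of opposite sign in water are counted among the 210. Without the day 5 arrays of M1 and M2, 28 of the 29 had the same sign and 11 were called in both.

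The difference between exposures was itself tested on all 22 arrays of these populations. No probe set passed, with a smallest adjusted p of 0.793 by limma and 474 (5.05%) at an unadjusted p under 0.05, and without the day 5 arrays of M1 and M2 again none (smallest adjusted p 0.849), with 225 (2.4%). With populations as replicates the count was 0 as well, with 402 (4.28%) at an unadjusted p under 0.05. The regimes were thus not shown to differ more, or less, under ethanol than under water for any gene. CG6503 had the smallest p of this test among named genes, at -0.83 ± 0.17 (adjusted p 0.793), the difference being -1.55 in ethanol and -0.73 in water. CG5946 read -0.51 ± 0.06 in ethanol and -0.04 in water, and its M arrays lay between 9.34 and 9.64 under ethanol while its controls ran from 9.69 through 9.98 to 10.44. For Sgs5 the difference between exposures was -2.40 ± 0.57 and for Alp8 2.23 ± 0.53, each with an adjusted p of 0.882.

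**Figure D5:**
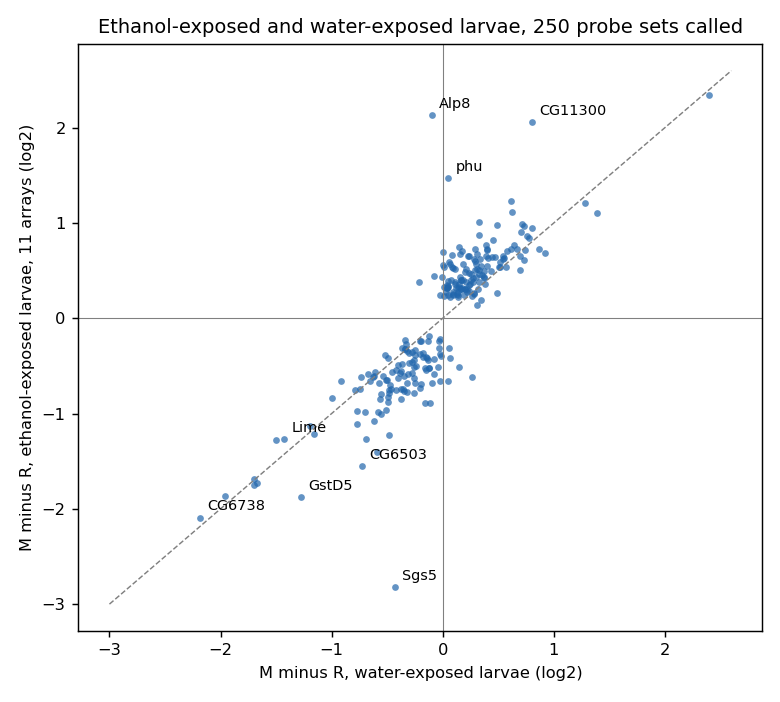
Each point is 1 of the 250 probe sets called in ethanol-exposed larvae, plotted by its difference between M and R in water-exposed larvae (horizontal, log2) and in ethanol-exposed larvae (vertical, log2), beside a dashed line of equality. Most points, 240, have the same sign in both exposures, and in water Alp8 lies at -0.09 and Sgs5 at -0.43.

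None of the 5 genes ranked first with populations as replicates passed adjustment. Over arrays 4 of the 5 were called, against 2.71% of all genes. The population values come from the fit to the same arrays. This overlap is thus largely built in and is not counted as support. Beside Sgs5 and Lime the genes ranked first were Phf5a, a gene of the U2 spliceosome, CG6733 and CG9259. Phf5a read 9.82, 9.99 and 9.91 in M1 and 9.85 and 10.04 in M2, against 9.24 through 9.33 to 9.39 in the controls, and rose by 0.59 ± 0.07. CG6733 read 10.25, 10.17 and 9.96 in M1 and 10.32 and 9.87 in M2, against 8.93 through 9.50 to 9.78, and rose by 0.73 ± 0.08. Neither gene had overlapping arrays. CG9259 stood at 0.93 ± 0.22 with a limma adjusted p of 0.0514 over arrays.

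The ethanol populations E1 and E2 were measured against the same control arrays, so their values are set beside those of M and not counted as further support. Sgs5 read 5.67, 3.93 and 5.83 in E1 and 6.51, 3.55 and 6.01 in E2 on days 1, 2 and 5. Lime read 6.19, 6.18 and 6.83 in E1 and 6.76, 6.65 and 7.33 in E2. Both genes were below the lowest control array in every ethanol-exposed array labelled E1 or E2, on day 5 and on the earlier days. Alp8 read 9.05, 8.63 and 7.49 in E1 and 9.48, 8.79 and 6.35 in E2. On days 1 and 2 both E populations lay above every control array. The day 5 arrays labelled E1 and E2 were the lowest and lay within the range of the controls. These day 5 arrays were nearest to the earlier M1 and M2 arrays, so their labels are as uncertain as those of M.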

How the data were processed

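Gene expression of pooled first-instar larvae was measured on Affymetrix arrays. The authors deposited log2 expression per probe set. The submitters' processing notes name affy and GCRMA, with no version given in the sources used here. This method models background from probe sequence, normalizes all arrays jointly and combines probes into 1 value, and low values follow its background model. Scanner values were not used here, so background and saturation were not checked on them. The precision is limited by the number of arrays.

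Population, exposure and extraction day were read from titles and protocols, and the labels tie the number in each title to a shared extraction day, so day is a term in every fit unless stated. M2 has no ethanol-exposed array of day 1 here and M1 no water-exposed array of day 2, and the fits adjust for these gaps. Of 18769 probe sets, the platform annotation gives 1 gene for 13647, several for 402 and none for 4720, and 13544 were named through a RefSeq gene table. A gene is represented by its brightest probe set, and levels are not compared between probe sets.

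R 4.3.3 and limma 3.58.1 were used, with an intensity trend, two-sided tests and Benjamini-Hochberg adjustment over 9394 probe sets at 0.05. Population and day were fitted to the 11 arrays, and the contrast was the mean of M1 and M2 minus the mean of R1 and R2, in log2 ± SE. The 4 day-adjusted population values were tested separately. Water-exposed arrays were fitted alike, and the difference between exposures on 22 arrays. The fits were tested on simulated data.

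Genes were named by rule, as the 10 largest called increases and decreases, the 5 smallest p with populations as replicates and for the difference between exposures, Adh, Adhr, Aldh and AcCoAS, and up to 4 members of each of 40 lists with the smallest p. The comparison and the lists were chosen with earlier results of these data known. Alternatives were other filters, scalings, moderation and units of replication, no day term, all 6 populations in 1 fit, and leaving out days, populations and single arrays. The fit within single days and the water and exposure fits without the day 5 arrays of M1 and M2 were added after the data were seen.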

Additional observations from a re-analysis of the deposited data

Results flagged for a closer look

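Of 118 groups of arrays tested, 5 held an array far from the others of its regime, and chance flags about 1 in 20 groups. AcCoAS read 12.48 in the ethanol-exposed R1 array of day 5, below 12.77 to 12.92 in the other controls. CG6503 read 8.08 in the same array, against 8.40 to 8.57. CG6738 read 5.43 in the day 5 array labelled M2, against 8.71 to 9.11 in the other variable arrays. The cuticle gene Cpr65Ec read 8.13 in the R2 array of day 1, against 7.22 to 7.50 in the other controls. The transporter gene sut2 read 6.05 in the day 5 array labelled M1, against 4.92 to 5.17 in the other variable arrays.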

How the results depend on the processing

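Over arrays, 250 probe sets were called. With the replicate block (extraction day) taken out there were 18, without the intensity trend 115, without day 2 3, without day 5 11, without the M1 and M2 arrays of day 5 29, with regime and day only 43, and with population as a random block 7 (consensus correlation 0.185). Within day 1, 2 or 5 alone there were 0, 0 and 1, with 111, 629 and 641 at an unadjusted p under 0.05 by limma. Leaving out a population gave 46 (without M1) to 492 (without R2). Leaving out 1 array gave 37 (without M2 day 5) to 520 (without R2 day 1), with 72 without M1 day 1, 54 without R1 day 2, 87 without M1 day 2, 72 without M2 day 2 and 48 without R2 day 5. The remaining alternatives gave 182 (17 arrays of 6 populations) to 314 (robust moderation). With populations as replicates 0 were called in every setting run. In water the 108 became 23 without the replicate block, 41 without day 5 and 50 without the M1 and M2 arrays of day 5. The difference between exposures gave 0 throughout, also without the block. Of 1901 values for 58 genes under 33 alternatives, 1111 stayed on their side of the threshold, 772 no longer passed, 12 newly passed and 6 changed sign. The 6 were AcCoAS (-0.013 without R1 and -0.00143 without R1 day 5; 0.088 without R2), CG34278 (-0.13 without R1 and -0.033 on day 1 alone; 0.55 without R2), CG15772 (-2.10 on day 5 alone) and the dimmer probe set of Adh and Adhr (-0.056 on day 5 alone). The cause of these shifts was not tested, and settings with fewer arrays also have fewer degrees of freedom. Values under 4, near the floor of the array summary, limit the sizes given for GstD5 and CG16995.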
